A study of Triticum aestivum with 48 samples.

Results

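Shoots of the bread wheat genotypes K9107 and K307 were compared at control nitrogen, with 3 arrays for each genotype. These 6 arrays, of 48 in the series, were taken by their titles. All came from shoots of 15 day old seedlings in vermiculite and perlite, fed a modified MS medium lacking other nitrogen with 8 mM calcium nitrate. The series also holds roots, a low supply of 0.08 mM calcium nitrate, and the genotypes HD2967 and CL. No allele, transgene or treatment other than nitrogen is named for either genotype. The series description speaks of 3 sets of pots per genotype, without tying an array to a set of pots. The p-values therefore measure the spread between arrays, pooled over the 18 shoot arrays fitted below. The question the comparison bears on is how far the seedlings of the 2 genotypes differed when nitrogen was not limiting.

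A wheat shoot of this age holds expanded green leaf, where photosynthesis genes dominate, and a small basal zone in which cells divide and then elongate. Dividing cells make core histones to package new DNA and tubulins for the spindle, and elongating cells remodel their walls with enzymes such as xyloglucan endotransglucosylase. Thionins are small cysteine-rich peptides toxic to microbes, and the THI1 genes of wheat are best known for the purothionins of the endosperm.

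The array medians of the deposited log2 signals fell into 4 separate ranges, called normalization sets 1 to 4. K9107 array 1 and K307 array 1 lay in set 2 (medians of 4.33 to 4.47). K9107 arrays 2 and 3 and K307 array 2 lay in set 4 (5.32 to 5.39). K307 array 3 lay in set 3 (4.61 to 4.68), which held no K9107 control shoot array, so its contribution rests on the fitted set offset. Differences were therefore fitted with limma on 18 shoot arrays (HD2967, K9107 and K307 at both nitrogen supplies) with the set as a term, and each is given as K9107 minus K307 on the log2 scale, ± standard error. A probe set was called at an adjusted p under 0.05 over 61179 probe sets. Within-set differences, K9107 array 1 against K307 array 1 and the mean of K9107 arrays 2 and 3 against K307 array 2, stand beside the fitted ones. For 33 probe sets the set-adjusted values passed the highest deposited signal of 14.3, so levels below are the deposited ones. K9107 array 2 stood somewhat apart, correlating at 0.955 with K9107 array 3, while K9107 array 3 correlated at 0.961 with K307 array 2 and at 0.976 with K9107 array 1. The HD2967 control array 1 had the largest residual spread of the 18 (0.444), against 0.262 and 0.309 for the other arrays of its group.

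Green leaf markers were high in the arrays labelled shoot. Over the 6 control shoot arrays petC, the Rieske iron-sulphur protein of the photosynthetic electron chain, lay at 11.4 to 12.3, and at 3.91 to 5.90 in the 6 control root arrays of the same genotypes. PRK, the phosphoribulokinase of the Calvin cycle, lay at 9.73 to 11.6 in shoots and 3.18 to 4.41 in roots. PsbO, PsbP and FBP were separated in the same direction, with no overlap between tissues.

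In control shoots 4114 of 61179 probe sets (6.72%) differed between the genotypes, 2020 higher in K9107 (3.3%) and 2094 lower (3.42%). An unadjusted p under 0.05 was reached by 14098. The directions were near balance in number but not in fitted size: among called differences over 3 log2 units 84 were higher in K9107 and 349 lower, and over 5 units 13 were higher and 100 lower. The median called difference was 0.97 among those higher and -1.43 among those lower, where the median of all probe sets was 0.06. These sizes include K307 array 3 on its fitted set offset. For Ta.1345.1.S1_x_at, the largest lower, that offset moved K307 array 3 from 11.1 to 16.3. Its fitted difference of -9.62 went beyond the -8.80 within set 2 and -7.55 within set 4. Sizes were not counted under another scaling. Of the 4114, 4113 had the same sign within set 2 and within set 4. These within-set differences come from arrays of the same fit, so they are not an independent check. Within both sets the genotypes lay apart in the same direction for 4110 of the 4114 and for 28651 of all 61179. With no set term 601 were called, 392 higher and 209 lower, and the median of all probe sets was 0.29. With arrays centred on their medians in place of the set term, 1197 were higher and 742 lower. The balance between directions thus moved with the scaling.

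Only 1273 probe sets could be paired with a gene, and 102 genes carried an informative name. Of these 102 genes, each read from its brightest probe set, 10 passed the test, where 6.72% of all probe sets did. All 10 were lower in K9107. They were the thionins THI1.3 and THI1.1, the beta-tubulins tubb2 and Tubb5, BMY1, XTH, Prx1, RPL9, Hmgb3 and TSA. All 10 kept their sign within set 2 and within set 4, in differences made from arrays of the same fit. With no set term THI1.3 and THI1.1 remained called (adjusted p of 5.63e-06 and 8.71e-05), and the other 8 were not, with adjusted p from 0.0979 for BMY1 to 0.574 for TSA. In a fit of the 12 K9107 and K307 shoot arrays alone, 18 named genes were lower and 1, FKBP70, was higher. Of all probe sets, 4.75% were called lower in that fit and 3.45% higher. Whether an allele that differs from the probes hybridized less, or there was less transcript, was not tested. None of the 10 passed in control roots, where several of them read low in both genotypes. There tubb2 differed by 0.02 ± 0.11, Tubb5 by -0.44 ± 0.14 and Hmgb3 by -0.24 ± 0.21. In bulk shoots fewer cells of a type and less RNA per cell cannot be told apart. Probe sets whose names end in x_at or s_at can also read close copies of a gene, which hexaploid wheat has in number.

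Among the named genes the thionins had the lowest adjusted p. THI1.3 lay at 1.99, 2.43 and 2.68 in K9107 arrays 1 to 3 and at 7.17, 6.48 and 6.19 in K307 arrays 1 to 3. Every K9107 array was near the bottom of the scale and every K307 array was far above it. The difference was -4.61 ± 0.29 (adjusted p = 8.69e-07), with -5.18 within set 2 and -3.92 within set 4. THI1.1 lay at 2.32, 3.51 and 3.99 in K9107 and at 7.60, 7.47 and 6.80 in K307, again without overlap. Its difference was -4.48 ± 0.34 (adjusted p = 4.18e-06). Neither lost its call in any of the 6 fits that left out 1 of these arrays, with adjusted p up to 3.18e-05 for THI1.3 and 0.000102 for THI1.1. The HD2967 control shoots lay with K9107, at 1.84 to 2.26 for THI1.3.

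At 0.08 mM calcium nitrate every K307 array read lower for both thionins than any K307 array at 8 mM. THI1.3 lay at 5.03, 4.33 and 3.93 in K307 and at 2.23, 3.43 and 1.79 in K9107, and the difference of -2.09 ± 0.29 passed (adjusted p = 0.00121). THI1.1 differed there by -1.28 ± 0.33 and did not pass (adjusted p = 0.0935). The change of the genotype difference with nitrogen was 2.52 ± 0.40 for THI1.3 and 3.20 ± 0.47 for THI1.1, and neither passed (adjusted p of 0.304 and 0.219). In control roots, where both genes were low, the differences were 0.15 for THI1.3 and 0.37 for THI1.1, not passed. Of 18 grain probe sets, for gliadins, a glutenin, serpins and inhibitors, none passed at control nitrogen in shoots, where 6.72% of all probe sets did. Their median difference was 0.07. Gli-8, a gliadin, lay at 0.85 ± 0.24 and did not pass (adjusted p = 0.0559).

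**Figure D1:**
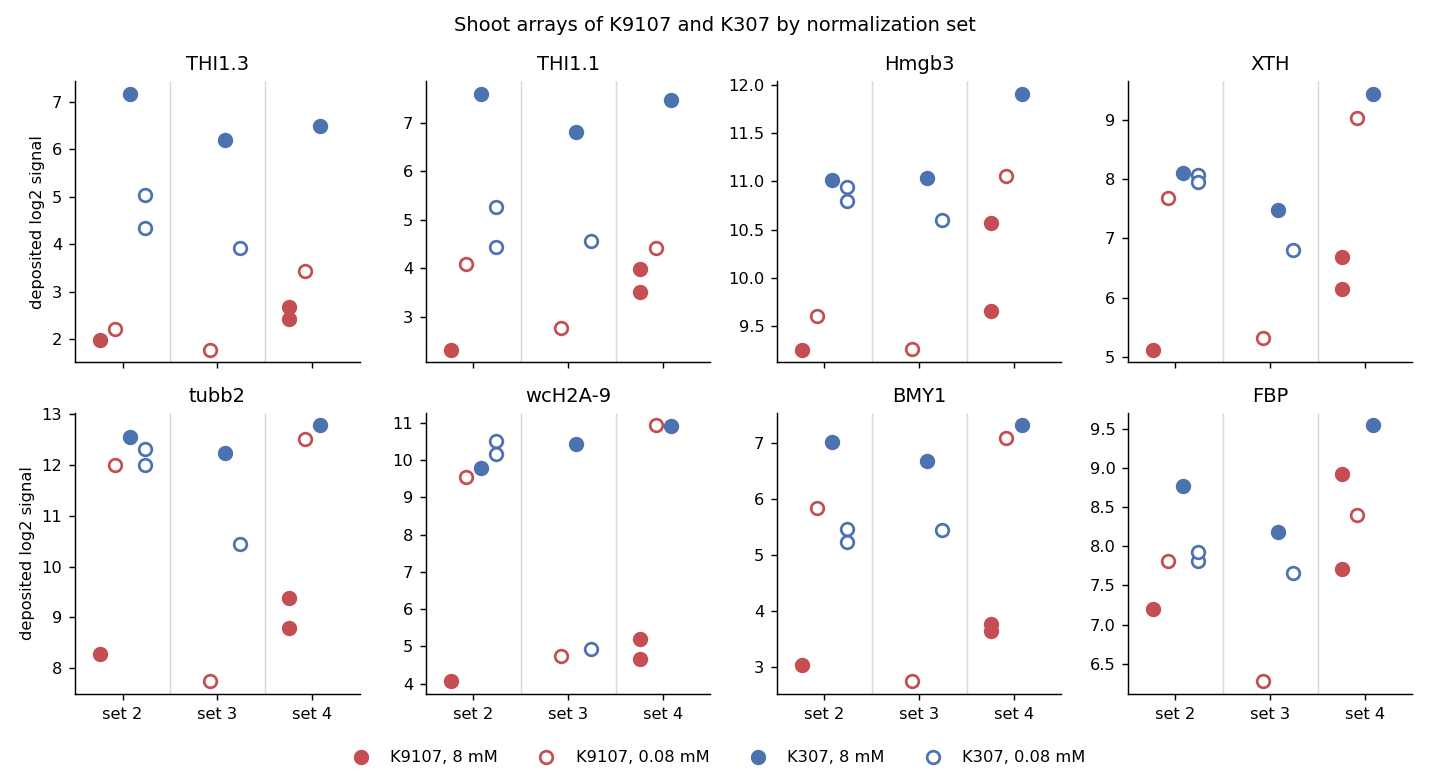
Deposited log2 signal (vertical axis) of 8 genes in every K9107 and K307 shoot array, arranged by normalization set, with filled points for 8 mM and open points for 0.08 mM calcium nitrate and each point 1 array. In THI1.3 all filled K9107 points lie between 1.99 and 2.68 and all filled K307 points between 6.19 and 7.17, while in wcH2A-9 and tubb2 the K9107 points at 0.08 mM fall at either end of the range.

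Of the 13 defence probe sets, thionins included, 4 were called lower, where 3.42% of all probe sets were, and none higher. All 4 belonged to THI1.3 or THI1.1. PR5, a thaumatin-like pathogenesis protein, lay at 10.5, 9.47 and 10.9 in K9107 and at 4.74, 9.76 and 7.86 in K307. The K307 arrays spread widely and overlapped K9107, and the difference of 2.55 ± 0.94 did not pass (adjusted p = 0.125).

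Of 18 core histone probe sets, from 5 genes, 1 was called lower in K9107 and none higher, where 3.42% of all probe sets were called lower. wcH2A-9, a histone H2A gene, lay at 4.06, 4.66 and 5.19 in K9107 and at 9.78, 10.9 and 10.4 in K307, with no overlap. The fitted difference of this probe set, its brightest, was -6.94 ± 1.93 (adjusted p = 0.0502), against -5.72 within set 2 and -5.98 within set 4. The 1 call was another wcH2A-9 probe set, at -4.77 ± 1.27 (adjusted p = 0.0438). The histone H2B gene wcH2B-8 lay at 5.08, 5.89 and 5.75 in K9107 and at 9.15, 9.80 and 9.22 in K307, and its difference of -4.71 ± 1.42 did not pass (adjusted p = 0.0655). Over the 18 probe sets the differences ran from -6.94 to 0.44, with a median of -4.44 against 0.06 over all probe sets. Within both sets the arrays of the genotypes lay apart with K9107 lower for 17 of the 18, which held for 12514 of all probe sets (20.5%). Most of the 18 were of wcH2A-9 and wcH2B-8, so they are not separate observations. The exception was a probe set of wcH2A-3 at 0.44, where the brightest of that gene lay at -3.59.

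The histone calls depended on which arrays set the spread. In the fit of the 12 K9107 and K307 arrays 14 of 18 histone probe sets were called lower, where 2909 of all probe sets were lower (4.75%) and 2110 higher (3.45%), and wcH2A-9 had an adjusted p of 0.0085. Without HD2967 control array 1, left out after its values had been seen, 13 were called lower and 5734 probe sets in all. In that array wcH2A-9 lay at 11.1, against 5.01 and 4.85 in the other HD2967 control arrays. At 0.08 mM wcH2A-9 lay at 9.55, 10.9 and 4.74 in K9107 and at 10.5, 10.2 and 4.92 in K307. Array 3 of each genotype was low there and the other arrays were high. Both low arrays lay in set 3 and the others in sets 2 and 4. Of the other shoot arrays in set 3, HD2967 control arrays 2 and 3 also read low. K307 control array 3 and HD2967 control array 1 read high. The part of the set in these readings was not tested. The median histone difference at 0.08 mM was 0.09, with none called. In roots it was -0.29, with 3 called lower, where 537 of all 61179 probe sets were.

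Among the 10 tubulin probe sets 3 were called lower, where 3.42% of all probe sets were, and none higher. tubb2, a beta-tubulin, lay at 8.29, 8.80 and 9.38 in K9107 and at 12.6, 12.8 and 12.2 in K307. The groups did not overlap, and the difference was -4.51 ± 1.03 (adjusted p = 0.024). Tubb5 lay at 6.55, 7.66 and 7.62 in K9107 and at 9.06, 9.95 and 9.26 in K307, a difference of -2.77 ± 0.63 (adjusted p = 0.0243). All 10 had a negative difference, as had 24745 of all 61179 probe sets, and the median was -1.46. Tubb4 (-0.79 ± 0.22, adjusted p = 0.0532) and the alpha-tubulin TUBA (-0.96 ± 0.30, adjusted p = 0.0702) did not pass. Leaving out 1 of the 6 arrays ended the call of tubb2 in 4 of 6 fits (K307 array 2 or 3, K9107 array 1 or 2; adjusted p up to 0.136) and that of Tubb5 in 3 (K307 array 2 or 3, K9107 array 1; up to 0.143).

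XTH, a xyloglucan endotransglucosylase, lay at 5.13, 6.15 and 6.69 in K9107 and at 8.10, 9.44 and 7.49 in K307. All K307 arrays were above all K9107 arrays, and the difference was -3.17 ± 0.68 (adjusted p = 0.0178). In the list of hormone and growth regulators, with 6 probe sets and a median of -1.54, XTH was the only call. Over all probe sets 6.72% were called. In the fit of 12 arrays 4 of the list were called lower, where 4.75% of all probe sets were. GA20ox1d, a gibberellin 20-oxidase that makes active gibberellin precursors, lay at 3.89, 5.06 and 6.68 in K9107 and at 6.22, 7.99 and 6.20 in K307. Its groups overlapped in deposited values across sets, but not within set 2 or set 4. The difference of -2.26 ± 0.76 did not pass (adjusted p = 0.0946). GA20ox1a (-1.38 ± 0.40, adjusted p = 0.0584) and GA20ox1b (-0.96 ± 0.33, adjusted p = 0.103) did not pass at control nitrogen, and both passed at 0.08 mM, at -1.73 ± 0.39 (adjusted p = 0.0477) and -2.03 ± 0.33 (adjusted p = 0.0045). The change with nitrogen passed for neither (adjusted p of 0.89 and 0.548).

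Hmgb3, a high mobility group protein of chromatin, lay at 9.26, 9.66 and 10.57 in K9107 and at 11.02, 11.91 and 11.04 in K307. The groups did not overlap, and the difference was -1.87 ± 0.31 (adjusted p = 0.00478). Its call held in all 6 fits with 1 array left out, with adjusted p up to 0.0423, but ended with no set term (adjusted p = 0.147). Both Hmgb3 probe sets were called.

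BMY1, a beta-amylase, an enzyme of starch breakdown, lay at 3.03, 3.64 and 3.77 in K9107 and at 7.01, 7.31 and 6.67 in K307. It differed by -4.08 ± 1.03 (adjusted p = 0.0356) with no overlap, and lay at 5.85, 7.10 and 2.75 in K9107 at 0.08 mM. Of the 8 probe sets for other starch and fructan genes none was called, where 6.72% of all probe sets were. AGA.1 (-0.65 ± 0.20, adjusted p = 0.07), AGP-S, the small subunit of ADP-glucose pyrophosphorylase (-0.46 ± 0.24), and 1-FEHw2, a fructan exohydrolase (0.48 ± 0.23), did not pass.

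Prx1 lay at 6.34, 6.90 and 9.26 in K9107 and at 9.59, 10.3 and 9.68 in K307. K9107 array 3 came close to the K307 arrays, and the difference was -3.02 ± 0.78 (adjusted p = 0.0387). RPL9, a ribosomal protein gene, lay at 6.63, 7.09 and 8.08 in K9107 and at 8.59, 9.26 and 8.27 in K307, without overlap and with a difference of -1.96 ± 0.42 (adjusted p = 0.0185). TSA lay at 10.1, 10.6 and 11.5 in K9107 and at 11.3, 12.2 and 11.3 in K307, and overlapped in deposited values. Its difference was -1.17 ± 0.28 (adjusted p = 0.0298), with -1.16 within set 2 and -1.08 within set 4. In these 3 genes K9107 array 3 was the highest of its genotype, as it was in FBP and PRK.

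These calls rested on few arrays. The call ended in 5 of 6 fits with 1 array left out for BMY1, Prx1 and TSA, which kept it only without K9107 array 3. It ended in 4 for RPL9 (K307 array 2 or 3, K9107 array 1 or 2) and in 3 for XTH (K307 array 2 or 3, K9107 array 1). The highest adjusted p was 0.155 for BMY1, 0.202 for Prx1, 0.15 for TSA, 0.122 for RPL9 and 0.116 for XTH.

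Of 36 photosynthesis probe sets 1, for the Rubisco large subunit gene rbcl, was called lower and none higher. Over all probe sets 3.42% were called lower and 3.3% higher. The median of the 36 was -0.14, or 0.051 with no set term. FBP, a fructose bisphosphatase, lay at 7.20, 7.71 and 8.92 in K9107 and at 8.77, 9.54 and 8.18 in K307. These deposited values overlapped across sets, but not within set 2 or set 4. Its difference of -1.39 ± 0.41 did not pass (adjusted p = 0.0615). PRK (-1.27 ± 0.45, adjusted p = 0.111) and petC (-0.54 ± 0.28, adjusted p = 0.278) did not pass. The brightest rbcl probe set differed by -0.11 ± 0.10, with a 95% interval of -0.32 to 0.10.

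Among 14 redox probe sets 4 were called lower, where 3.42% of all probe sets were, 3 of them from Prx1 and 1 from lgul, a lactoylglutathione lyase, and the list median was 0.00. Over all probe sets 6.72% were called in either direction. Among 9 translation probe sets RPL9 was the only call. None of the 11 probe sets for LEA, cold and heat shock proteins was called. In that list LEA1 lay at 2.45, 10.1 and 2.82 in K9107 and at 3.97, 2.83 and 2.74 in K307, and Rab15, a dehydrin, at 5.99, 10.7 and 6.54 in K9107 and at 5.60 to 5.78 in K307. K9107 array 2 alone was high in both, and neither passed (1.70 ± 1.76 and 1.76 ± 1.12). None of the 8 transport and metal probe sets was called. TaALMT1, an aluminium-activated malate transporter, lay at -0.37 ± 0.74 (adjusted p = 0.813). The list of nitrogen uptake and assimilation genes matched no named probe set, so those genes were not analysed here.

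**Figure D2:**
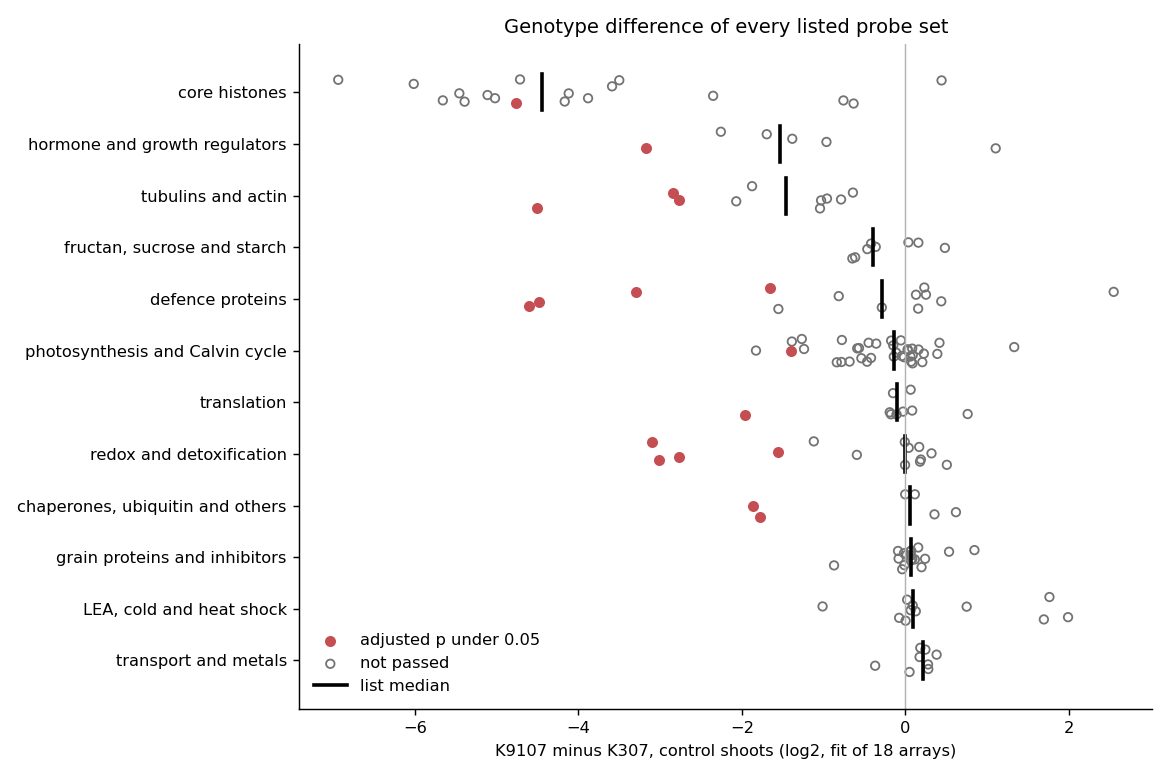
K9107 minus K307 in control shoots (horizontal axis, log2) for every probe set of 12 gene lists, with filled points for an adjusted p under 0.05, open points for the rest and a bar at each list's median. Histones centre on -4.44 and tubulins on -1.46, and every filled point lies below 0.

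Of the 200 named probe sets 20 were called, where 6.72% of all probe sets were, and all 20 were lower in K9107. The median over the 200 was -0.08. Among the 1073 probe sets paired with a gene known only by number, 117 were called (10.9%), 44 higher and 73 lower. Over all probe sets 3.3% were higher and 3.42% lower. LOC542821, chosen here after its values were seen, lay at 8.46, 9.53 and 7.81 in K9107 and at 3.13 to 4.58 in K307, a difference of 4.63 ± 0.53 (adjusted p = 0.000232).

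The largest differences without a gene name ran in both directions. Ta.24954.1.S1_at lay at 10.3, 10.7 and 10.8 in K9107 and at 2.39, 3.34 and 2.71 in K307. It differed by 7.72 ± 0.26 (adjusted p = 4.08e-09), and by 7.62 at 0.08 mM and 5.99 in roots. TaAffx.24911.1.S1_at differed by 7.25 ± 0.46 (adjusted p = 7.39e-07), by 7.03 at 0.08 mM and by 3.59 in roots. Both were higher in K9107 in every sample type tested.

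The 2 largest in the other direction had far larger errors. Ta.1345.1.S1_x_at lay at 2.87, 3.80 and 3.89 in K9107 and at 11.7, 11.4 and 11.1 in K307, a difference of -9.62 ± 2.29 (adjusted p = 0.0285), with -8.80 within set 2 and -7.55 within set 4. At 0.08 mM it lay at 12.05, 11.72 and 2.62 in K9107 and at 4.70 to 12.36 in K307, and differed by -0.66 (adjusted p = 0.982). Array 3 of each genotype, in set 3, was low there, as for wcH2A-9. Ta.25342.2.S1_at differed by -9.31 ± 2.55 (adjusted p = 0.0477) and by 0.01 at 0.08 mM. The change with nitrogen passed for neither (adjusted p of 0.476 and 0.497). The call of Ta.1345.1.S1_x_at ended in 4 of 6 fits with 1 array left out and that of Ta.25342.2.S1_at in all 6 (adjusted p up to 0.202).

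The probe sets called in control shoots were also read in the other sample types. In shoots at 0.08 mM 1028 probe sets were called (1.68%) and in control roots 1263 (2.06%). Of the 4114 called in control shoots, 732 were also called in the same direction at 0.08 mM (17.8% of the control list and 71.2% of the low nitrogen list) and none in the opposite direction. The sign at 0.08 mM was the same for 3570 of the 4114. In roots 525 were called in the same direction (12.8% of the control shoot list and 41.6% of the root list) and 18 in the opposite. In all 3 comparisons 407 were called in the same direction, 200 higher and 207 lower, with a median size of 2.04. The largest called lower in all 3, Ta.27457.5.S1_x_at, differed by -6.84 ± 0.27 in control shoots, -7.62 at 0.08 mM and -2.30 in roots.

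The largest differences were followed into the other sample types by direction. Of the 84 called over 3 log2 units higher, 79 were also called at 0.08 mM and 57 in roots. Of the 349 called over 3 units lower, 54 were also called at 0.08 mM and 47 in roots. The difference between these shares was not tested. wcH2A-9, tubb2, Tubb5 and XTH read low in all 3 K9107 control arrays and in 1 of 3 K9107 arrays at 0.08 mM. Low readings were not limited to K9107. K307 array 3 at 0.08 mM was the lowest of its group, at 4.92, 10.4, 7.35 and 6.81 in that order. HD2967 control array 2 read 5.01, 9.46, 7.08 and 5.88, and control array 3 read 4.85, 7.94, 6.71 and 5.59. HD2967 control array 1 read higher, at 11.1, 12.3, 8.92 and 8.31. Whether the genotype difference itself changed with nitrogen was tested over all probe sets with limma, and none passed (lowest adjusted p = 0.219). An unadjusted p under 0.05 was reached by 5361, and the fit of 12 arrays called none either.

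**Figure D3:**
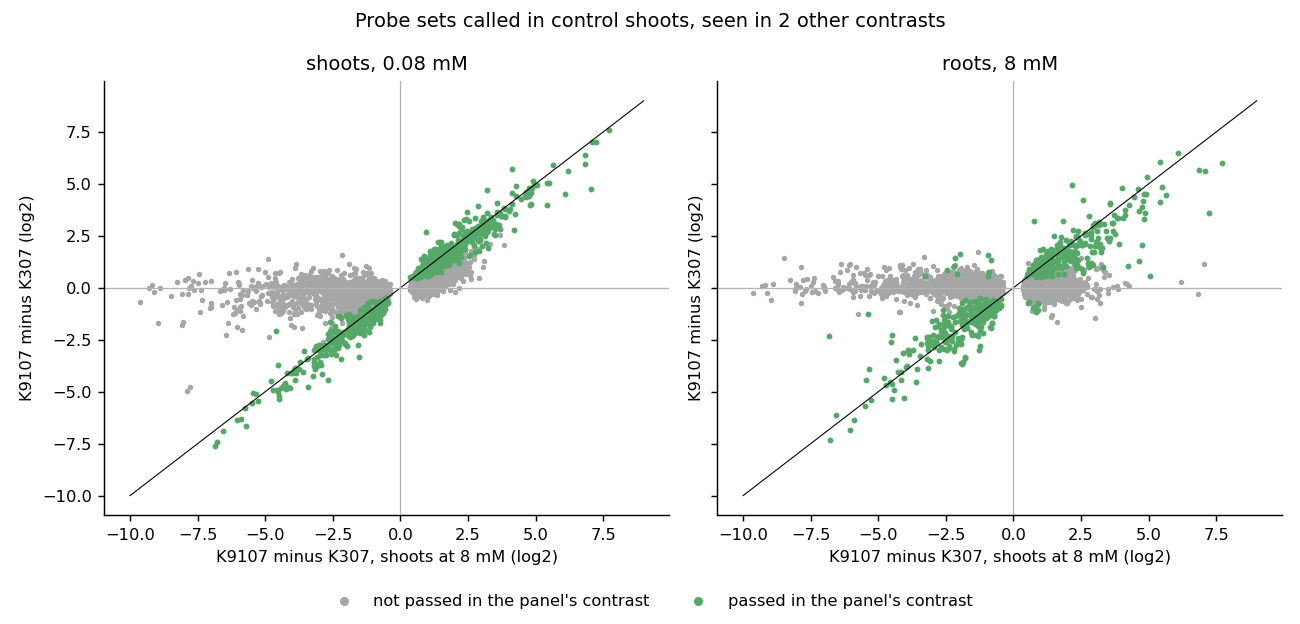
K9107 minus K307 in control shoots (horizontal axis, log2) against the same difference in shoots at 0.08 mM (left) and in control roots (right) for the 4114 probe sets called in control shoots, with green points also called in the panel's comparison and the diagonal marking equal differences. Many points below -3 on the horizontal axis lie near 0 on the vertical axis, while 79 of the 84 above 3 are green on the left.

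**Figure D4:**
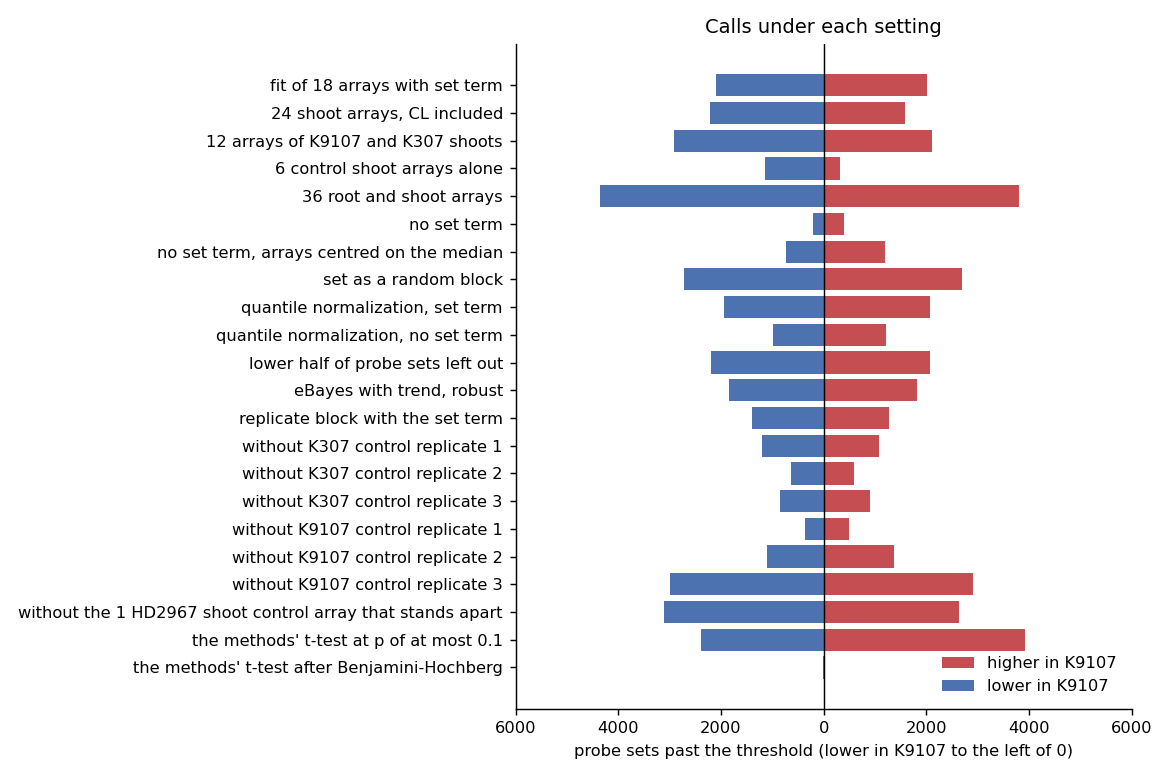
Number of probe sets called (horizontal axis, lower in K9107 to the left of 0 and higher to the right) under the fit of 18 arrays and each alternative. The first bar holds 4114 calls, and the others run from 17 for the methods' t-test after adjustment to 8160 with 36 arrays.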

How the data were processed

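The deposited values are log2 signals of 61290 probe sets, made by the authors with RMA, per the submitters' processing notes. GeneSpring 14.5 followed, per the series description. Which arrays shared a normalization run is not given in the sources used here. Affymetrix control probe sets (111) were dropped; 64 reporter probe sets stayed in. Normalization sets were read from gaps over 0.1 between array medians. limma 3.58.1 in R 4.3.3 (lmFit, eBayes, two-sided) was fitted to 18 shoot arrays with group and set as terms, 10 residual degrees of freedom, and Benjamini-Hochberg adjustment. The median residual SD was 0.21 with the set term and 0.485 without it. CL was left out, being alone in set 1. Roots were fitted separately. The fit was tested on simulated data. The number of arrays limits precision.

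Genes were named from platform annotation (1273 probe sets, 771 genes, 770 of them in IWGSC CS RefSeq v2.1). The rule named up to 15 called genes each way, up to 4 called members per list by smallest p or else 3 not passed, the 4 smallest interaction p, and 2 unnamed probe sets each way. Members and lists were chosen with earlier results of these data known. Alternatives covered the arrays fitted, the set term, scaling, filters, eBayes options, the replicate block and the methods' t-test.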

Additional observations from a re-analysis of the deposited data

How the results depend on the processing

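The count of 4114 called probe sets was 1476 (326 higher, 1150 lower) with the 6 control shoot arrays alone, 8160 with 36 root and shoot arrays, 601 with no set term, 1939 with arrays centred on the median, and 2201 with quantile normalization and no set term. The methods' t-test called 6301 at p of at most 0.1 (3916 higher, 2385 lower) and 17 after Benjamini-Hochberg. Leaving out 1 array gave 855 to 5896: 2271, 1226 and 1756 without K307 array 1, 2 or 3, and 855, 2487 and 5896 without K9107 array 1, 2 or 3. The fit of 12 arrays called 5019, of which 3404 were among the 4114.

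Same-numbered K9107 and K307 arrays had residual correlations of 0.146, -0.24 and 0.116, and differently numbered ones ran from -0.416 to 0.502. The arrays numbered 1 also shared a normalization set, as did those numbered 2. With so few arrays these correlations cannot show whether same-numbered arrays were paired. The replicate block gave 2670 calls. The interaction count of 0 was 69 with 36 arrays and 0 to 3 with 1 array left out (2 without K307 array 2, 3 without K307 array 3).

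With no set term, list medians were -0.99 for tubulins, 0.051 for photosynthesis, 0.0069 for defence, -0.049 for fructan and starch, 0.18 for translation, 0.28 for grain and 0.44 for transport. Centred on array medians, fructan and starch lay at -0.24 and translation at -0.014. Within set 2 tubulins lay at -0.98 and translation at 0.026, and within set 4 fructan and starch at -0.22. Of genes not called, LEA1 ran from -0.53 (without K9107 array 2) to 3.23 with 1 array left out and lay at -1.52 within set 2, EMH2 at -0.0081 within set 2, and TaALMT1 ran from -1.02 to 0.72 with 1 array left out (highest without K307 array 1, 0.00052 without K9107 array 3) and lay at 0.34 within set 4. The causes were not tested.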
